A study of Mus musculus with 16 samples.

Results

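The mRNAs of the proteasome, the protease that degrades ubiquitinated proteins, were examined in protrusions (Ps) and cell bodies (CB) of NIH/3T3 cells, an established mouse fibroblast line. Members were taken by name, as every listed gene whose symbol starts with Psm, a letter from a to g and a digit, with names ending in -ps left out. This gave 47 of the 13015 listed genes. They comprised 16 subunits of the core particle (Psma and Psmb names), 20 Psmc and Psmd names of the regulatory particle, 10 activators, inhibitors and assembly chaperones (Psme, Psmf and Psmg names), and Psmc3ip. Psmc3ip carries the name of an interaction partner but encodes a meiotic recombination cofactor and no subunit, so it was counted in neither particle. No row with a -ps name matched, and Psma8, Psmb8 and Psmb11 have no row among the listed genes. The fewest reads of any member in any library were 37, for Psmb9, and 43 of the 47 had a mean log2 level above 4.

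In the proteasome, a barrel of stacked alpha and beta rings, the core particle, holds the proteolytic sites facing an inner chamber. The alpha ring forms the gate, and a regulatory particle, made of a base with ATPases that unfold the substrate and a lid that removes its ubiquitin chains, opens that gate. Separate chaperones assemble each particle, and alternative activators can bind the core in place of the regulatory particle. Degradation by the proteasome is also known to act locally, for example in axons and at synapses.

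Cells kept without serum sat for 2 h on porous filters (pore size 3.0 µm), after which lysophosphatidic acid below the filter drew protrusions through the pores for 1 h. After fixation in 0.3% paraformaldehyde for 10 min, RNA was taken from 1 filter for a CB sample and from 3 filters for a Ps sample. Before plating, the cells had received a negative control siRNA (siControl) or an siRNA against Apc (siAPC), the gene of the adenomatous polyposis coli protein, which binds microtubules and localizes RNAs in protrusions and also restrains beta-catenin. Crossing fraction with siRNA gives 4 groups, each with 4 libraries, named by siRNA, fraction and replicate (siAPC Ps 2). The paper calls the replicates independent, and the labels do not say that they were separate cultures, so the p-values are stated for the spread between these samples.

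The libraries held 13466225 to 20296087 listed reads. The Apc mRNA was at 2.13 to 3.54 log2 CPM in siControl CB and 0.54 to 1.42 in siAPC CB, and at 3.29 to 3.73 in siControl Ps and 1.33 to 1.90 in siAPC Ps, with no overlap in either fraction. The nuclear RNA Malat1 was lower in siControl Ps than in CB by a log2 difference of -2.77, and the protrusion RNAs Cyb5r3 and Rab13 were higher, by 3.51 and 2.58. All 9 fibroblast markers of the list used were listed, though Thy1 reached at most 13 reads in a library, and 1 of 5 immune, 2 of 4 epithelial and 1 of 3 endothelial markers had a row. Mitochondrial transcripts took 1.37 to 1.95% of the listed reads in CB and 2.18 to 4.16% in Ps libraries, and their part in the results below was not tested. In 4 libraries genes of high GC content were low relative to the other libraries of the group. These were siControl CB 3, and replicate 2 of siControl Ps, siAPC CB and siAPC Ps. Spearman's rho across 10235 genes ran from -0.52 to -0.65 in them, against -0.04 to 0.54 in the other libraries. Without them 39 members were higher in siControl Ps and 35 in siAPC Ps, close to the 38 and 34 with them. Smaller counts moved more. Without them 5 members were lower in siAPC Ps than in siControl Ps (3 with them), and 2 passed the study's fold cutoff in siControl (1 with them). All values are log2 CPM (read counts scaled to library size, as deposited), relative to the other RNAs of the same library, so they give no amount per cell or per protrusion. A difference of 1 is a 2-fold ratio.

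Of the members, 5 carry, within the 250 bases before their annotated start, the letters TGACNNNGC of an antioxidant response element, the site of the factors that are known to raise proteasome genes when the protease is inhibited. They are shown because of siControl Ps/CB ratios as deposited. Of these members, Psmb5 and Psmb6 encode the catalytic subunits with the lowest ratios of the constitutive core, and Psmc6 had the highest ratio of all members. The sequences and starts are from RefSeq on GRCm38.p6, 5′ to 3′ on the strand of the gene. For Psmd9 the GENCODE gene starts upstream, at chr5:123169413, so the window printed lies inside that gene. Capitals mark the match, which for Psmc6 and Psmd12 lies on the opposite strand, and up to 15 bases of the window are printed on each side.
Psmc6, chr14:45329582-45329620, plus strand: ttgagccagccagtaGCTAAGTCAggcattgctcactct
Psmb6, chr11:70525333-70525356, plus strand: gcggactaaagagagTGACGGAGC
Psmb5, chr14:54618019-54618057, minus strand: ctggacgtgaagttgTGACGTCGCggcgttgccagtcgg
Psmd9, chr5:123228144-123228182, plus strand: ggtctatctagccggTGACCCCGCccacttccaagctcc
Psmd12, chr11:107479278-107479304, plus strand: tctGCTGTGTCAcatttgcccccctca
A promoter was matched for 40 members, and these letters were in 5 of the 40 (12.5%) against 11.5% of 27025 promoters of the same length, both strands searched. The beta-catenin partner's element AGATCAAAG was in 0 of 40 members and in 0.303% of all promoters. No match of one motif overlapped one of the other. The letters are a description of the windows and mark no tested site.

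In siControl cells most proteasome mRNAs had a higher share in Ps than in CB. Of the 47 members, 38 were higher in Ps (limma, Benjamini-Hochberg adjusted p below 0.05 over all genes), where 29.1% of the 13015 genes were. No member was lower in Ps, where 31.2% of all genes were, and at an unadjusted p below 0.05 or with voom precision weights the count of lower members was also 0. The median log2 Ps/CB ratio was 0.43 over the members and -0.0009 over all genes. For 35 members every siControl Ps library lay above every CB library, as it did for 24% of all genes. The differences were small in size, and 1 member, Psmc6, passed the study's cutoff for Ps enrichment (fold change above 2 and p below 0.05), which 7.19% of all genes passed.

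The size of this count depends on how libraries are scaled to each other. The authors' scaling set the effective size of siControl Ps libraries at 0.801 to 0.908 of their listed reads and that of the other libraries at 0.968 to 1.15. When each library was scaled to its total listed reads instead, the median of all genes moved to -0.30 in siControl and -0.14 in siAPC. By that scaling 22 members were higher and 7 lower in siControl Ps, against 15.4% of all genes higher and 47.6% lower. In siAPC Ps 28 were higher and 4 lower, against 21.5% and 39.3% of all genes. This scaling moves all genes alike, so the number of members above the median of all genes (45 of 47 in siControl and 43 in siAPC) is the same under both by construction. The 16 members that lost their siControl call under it were Psma7, Psmb2, Psmb5, Psmb6, Psmb10, Psmc1, Psmc2, Psmc3, Psmd7, Psmd8, Psmd11, Psmd13, Psmf1, Psmg1, Psmg2 and Psmc3ip, and the 7 lower were Psmc4, Psmd2, Psmd3, Psmd5, Psmd9, Psme3 and Psmg3. The Ps/CB values given from here on use the deposited scaling.

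**Figure D1:**
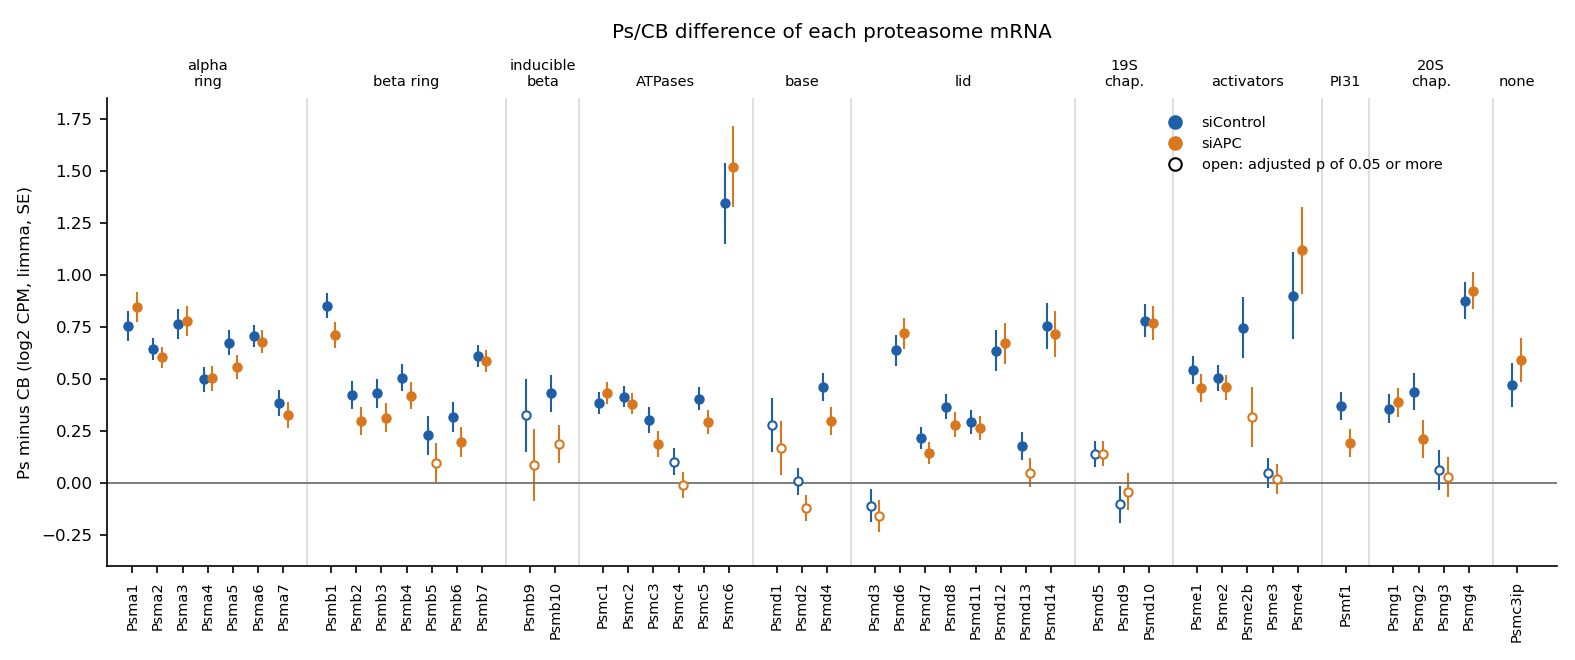
Log2 Ps/CB ratio (y axis) of each member (x axis), ordered by role, in siControl (blue) and siAPC cells (orange); points are limma estimates with their standard error over 4 libraries per group, and open points did not pass an adjusted p of 0.05. Nearly all points lie above 0, with Psmc6 and Psme4 highest and Psmd3, Psmd2 and Psmd9 at or under 0.

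The 7 alpha ring subunits, which gate the core particle, were all higher in siControl Ps, with log2 Ps/CB ratios from 0.38 (Psma7) to 0.76 (Psma3, standard error 0.07, adjusted p = 3.6e-08) and a median of 0.67. Psma1 had a ratio of 0.75. The 7 constitutive beta subunits were all higher too, from 0.23 (Psmb5) to 0.85 (Psmb1), with a median of 0.43. The beta ring therefore spanned a wider range, and its proteolytically active subunits differed among themselves.

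Psmb1, a structural beta subunit (chr17:15475021-15499751, minus strand), had the largest Ps/CB ratio of the core particle in siControl. Its level was 8.67, 8.75, 8.46 and 8.66 log2 CPM in siControl CB 1 to 4 and 9.61, 9.48, 9.43 and 9.42 in siControl Ps 1 to 4. The groups were far apart, and the Ps/CB ratio was 1.81-fold (log2 0.85, standard error 0.06, adjusted p = 1.1e-09). In siAPC cells the levels were 8.61, 8.61, 8.60 and 8.59 in CB and 9.29, 9.32, 9.30 and 9.35 in Ps, a 1.64-fold ratio (adjusted p = 1.4e-08). The 4 libraries of each siAPC group were nearly level with each other.

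Of the 3 catalytic subunits of the constitutive core, Psmb7, which carries the trypsin-like activity, had the clearest difference as deposited. Its level was 6.85, 6.89, 6.69 and 6.86 log2 CPM in siControl CB and 7.52, 7.44, 7.42 and 7.37 in siControl Ps. Every Ps library was above every CB library, with a ratio of 1.53-fold (log2 0.61, standard error 0.05, adjusted p = 1.6e-08). After the correction for GC content and length of the longest transcript described below, the call was lost in siControl (adjusted p = 0.24) and siAPC (0.97). With the principal transcript instead it held in siControl (log2 0.17, adjusted p = 0.0057) and siAPC (0.14, 0.021).

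Psmb6, the caspase-like subunit, was at 7.94, 7.93, 7.69 and 7.89 log2 CPM in siControl CB and at 8.24, 8.01, 8.27 and 8.21 in siControl Ps. The groups did not overlap, but Ps 2 lay just above the CB range, and the ratio was 1.25-fold (log2 0.32, standard error 0.07, adjusted p = 0.00078). Psmb5, the chymotrypsin-like subunit (chr14:54614119-54618022, minus strand), was at 6.35, 6.45, 6.09 and 6.35 in siControl CB and at 6.65, 6.33, 6.59 and 6.59 in siControl Ps. Here Ps 2 fell inside the CB range, and the ratio was 1.17-fold (log2 0.23, standard error 0.09, adjusted p = 0.040). That call was lost when any of siControl CB 1, 3 or 4 or siControl Ps 1, 3 or 4 was left out, with adjusted p from 0.052 to 0.14. The siControl calls of both Psmb6 and Psmb5 were lost with total listed reads. Their siControl ratios were below 0 after either correction for GC content and length described below. In siAPC cells Psmb5 did not pass (levels of 6.36, 6.38, 6.42 and 6.37 in CB and 6.50, 6.19, 6.62 and 6.61 in Ps, log2 ratio 0.10, adjusted p = 0.37), where Ps 2 was below all CB libraries, and passed without the 4 GC-trend libraries (0.19, adjusted p = 0.0058).

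**Figure D2:**
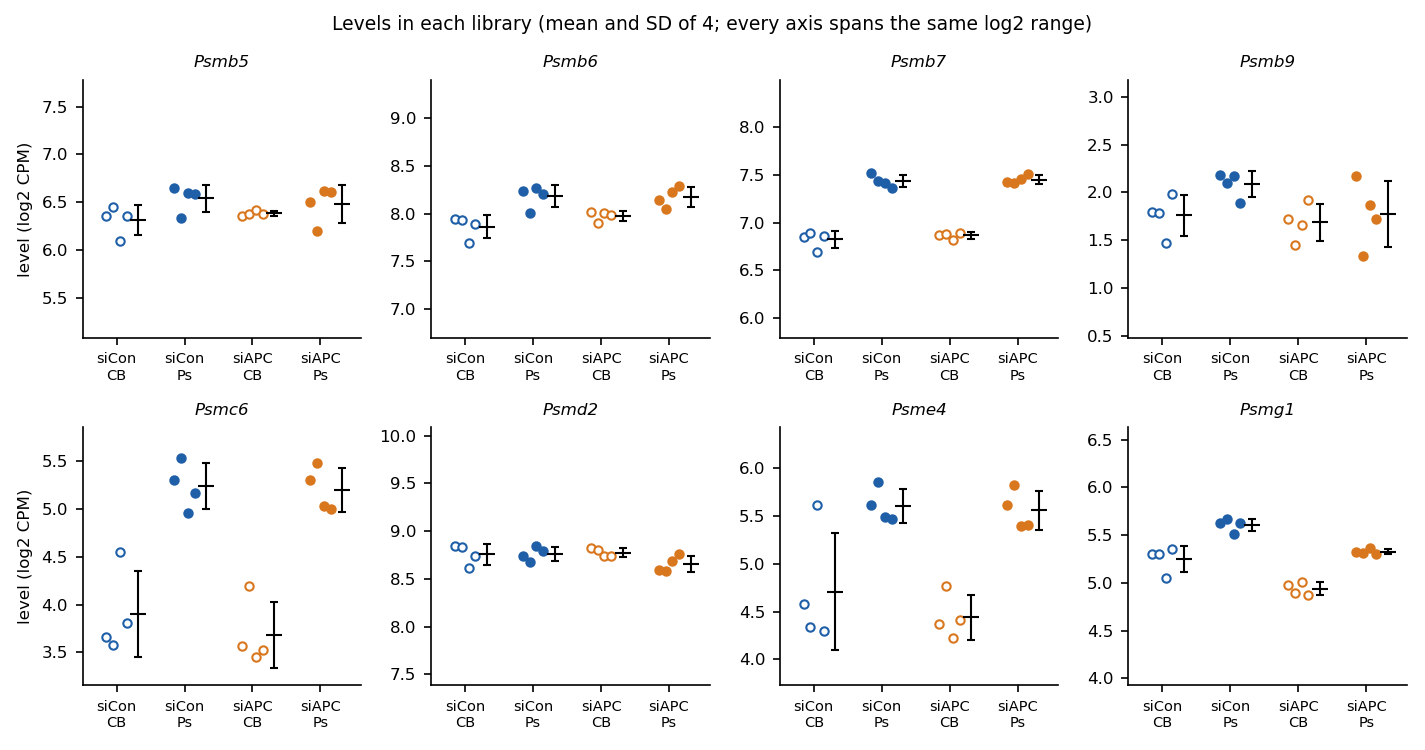
Log2 CPM (y axis) in each of the 16 libraries for 8 members, by group (x axis); each point is 1 library and the black marks are the mean ± SD of 4. Psmb7 separates Ps from CB in both siRNA groups, Psmb5 and Psmd2 overlap, and in Psmc6 and Psme4 siControl CB 3 stands above the other CB libraries.

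Of the regulatory particle, 14 of 20 members were higher in siControl Ps. Those that did not pass were the ATPase Psmc4 (log2 ratio 0.10, adjusted p = 0.17), the base subunit Psmd1 (0.28, 0.070, and 0.48, 0.00070 without the 4 GC-trend libraries), the ubiquitin and shuttle receptor Psmd2 (0.01, 0.93), the lid subunit Psmd3 (-0.11, 0.24), and the base chaperones Psmd5 (0.14, 0.060) and Psmd9 (-0.10, 0.34). Medians of the log2 ratio were 0.40 for the 6 ATPases, 0.28 for the 3 base subunits without ATPase activity and 0.33 for the 8 lid subunits.

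Psmc6 (chr14:45329788-45349705, plus strand), 1 of the 6 ATPases of the base ring, had the largest Ps/CB ratio of all members in the values as deposited. Its level was 3.66, 3.58, 4.56 and 3.81 log2 CPM in siControl CB and 5.31, 5.54, 4.96 and 5.17 in siControl Ps. CB 3 stood above the other CB libraries, and no CB library reached the Ps range. The ratio was 2.54-fold (log2 1.34, standard error 0.19, adjusted p = 7.6e-06), and its log2 value was 1.46 once the 4 GC-trend libraries were left out and 0.61 after the correction for GC content and length of the longest transcript described below, where Psme4 (0.85), Psmb1 (0.73) and Psme1 (0.72) were above it. In siAPC cells the levels were 3.57, 4.19, 3.45 and 3.53 in CB and 5.30, 5.49, 5.03 and 5.00 in Ps, a 2.87-fold ratio (adjusted p = 1.9e-06). The other 5 ATPases lay between 0.10 (Psmc4) and 0.41 (Psmc2) in siControl, so Psmc6 was apart from the ring it belongs to.

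Psmd14, the lid's deubiquitinase, was at 4.81, 4.78, 4.97 and 4.62 log2 CPM in siControl CB and at 5.62, 5.76, 5.37 and 5.43 in siControl Ps. All Ps libraries were above all CB libraries (1.69-fold, log2 0.75, standard error 0.11, adjusted p = 9.3e-06). The ubiquitin receptor Psmd4 was 1.38-fold higher in Ps (log2 0.46, standard error 0.07, adjusted p = 8.8e-06). Psmd2, the largest base subunit together with Psmd1 and a docking site for shuttle proteins, was at 8.85, 8.83, 8.61 and 8.74 in siControl CB and at 8.74, 8.68, 8.85 and 8.79 in siControl Ps. The ranges lay on top of each other, and the difference of 0.01 had a standard error of 0.06.

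Psmd3, a structural lid subunit, had the lowest ratio of the members in the values as deposited. Its level was 8.14, 8.08, 7.87 and 8.05 log2 CPM in siControl CB and 7.95, 7.74, 8.02 and 8.0 in siControl Ps, again with overlap. Among the 3 chaperones of the regulatory particle, Psmd10 (gankyrin), which holds an ATPase during assembly, was 1.72-fold higher in Ps (log2 0.78, standard error 0.08, adjusted p = 1.2e-07), while the values of Psmd5 and Psmd9 above did not pass.

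Among the activators, Psme1 and Psme2, which form the ring induced by interferon, were higher in siControl Ps by log2 0.54 and 0.50. Psme3, whose protein forms a nuclear activator, did not pass (log2 0.05, adjusted p = 0.58). Psme4 (chr11:30771726-30880361, plus strand), which encodes the large activator PA200, was at 4.58, 4.34, 5.62 and 4.30 log2 CPM in siControl CB and at 5.61, 5.86, 5.49 and 5.47 in siControl Ps. CB 3 lay inside the Ps range and the other CB libraries far below it. The ratio was 1.87-fold (log2 0.90, standard error 0.21, adjusted p = 0.0011), and without siControl CB 3 its log2 value was 1.2, which passes the study's fold cutoff.

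Psmf1, an inhibitor of the core particle in vitro, was higher in siControl Ps by log2 0.37 (adjusted p = 0.00010). The chaperones that start alpha ring assembly act in pairs. Psmg1 and Psmg2, of the first pair, were higher in Ps by log2 0.36 and 0.44, whereas in the second pair Psmg4 was higher by 0.87 (1.83-fold, standard error 0.09, adjusted p = 9e-08) and Psmg3 had a value of 0.06 (adjusted p = 0.58). Psmg4 was at 4.30, 4.11, 3.94 and 4.08 log2 CPM in siControl CB and at 5.19, 4.92, 4.97 and 4.85 in siControl Ps, with a wide gap between the groups. Psmc3ip was higher in Ps by 0.47 (adjusted p = 0.00076).

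The 2 particles were compared by the median Ps/CB ratio of their members in same-numbered libraries. In siControl same-numbered CB and Ps libraries deviated together in replicates 1 and 4 but not in 2 and 3, and the labels state no pairing. The tally and SD there depend on how libraries were matched. In siControl the core median was 0.52, 0.43, 0.67 and 0.49 for replicates 1 to 4 (mean 0.53 ± 0.10, SD, n = 4), and the regulatory median was 0.35, 0.29, 0.39 and 0.35 (mean 0.34 ± 0.04). The core was above the regulatory particle in 4 of 4, by 0.17, 0.14, 0.28 and 0.15 (mean 0.19 ± 0.07). In siAPC the core median was 0.47 ± 0.05 and the regulatory median 0.27 ± 0.06, with the core above by 0.21, 0.15, 0.26 and 0.16 (mean 0.19 ± 0.05). Leaving out Psmb9 and Psmb10 raised the difference in siAPC to 0.25. Scaling to total listed reads moves both medians alike and left the difference as it was.

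That order did not hold once transcript GC content and length were taken into account. Core transcripts were shorter, with a median length of the longest transcript of 1275 bases against 1986 for the regulatory members and 1174 against 1710 for the principal transcript. GC content differed little, at 49.5% and 49.6% for the longest and 50.1% and 49.6% for the principal transcript. After a smooth trend on GC content and length of the longest transcript was removed from every library, the core median was 0.16 ± 0.14 and the regulatory median 0.20 ± 0.07 in siControl, a difference of -0.04 ± 0.07 that ran from -0.10 to 0.05 over the 4 replicates. In siAPC the difference was -0.07 ± 0.03, from -0.11 to -0.05. With the principal transcript, an alternative chosen after seeing the data, the difference was -0.14 ± 0.09 in siControl and -0.15 ± 0.07 in siAPC, below 0 in 4 of 4 replicates of each.

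**Figure D3:**
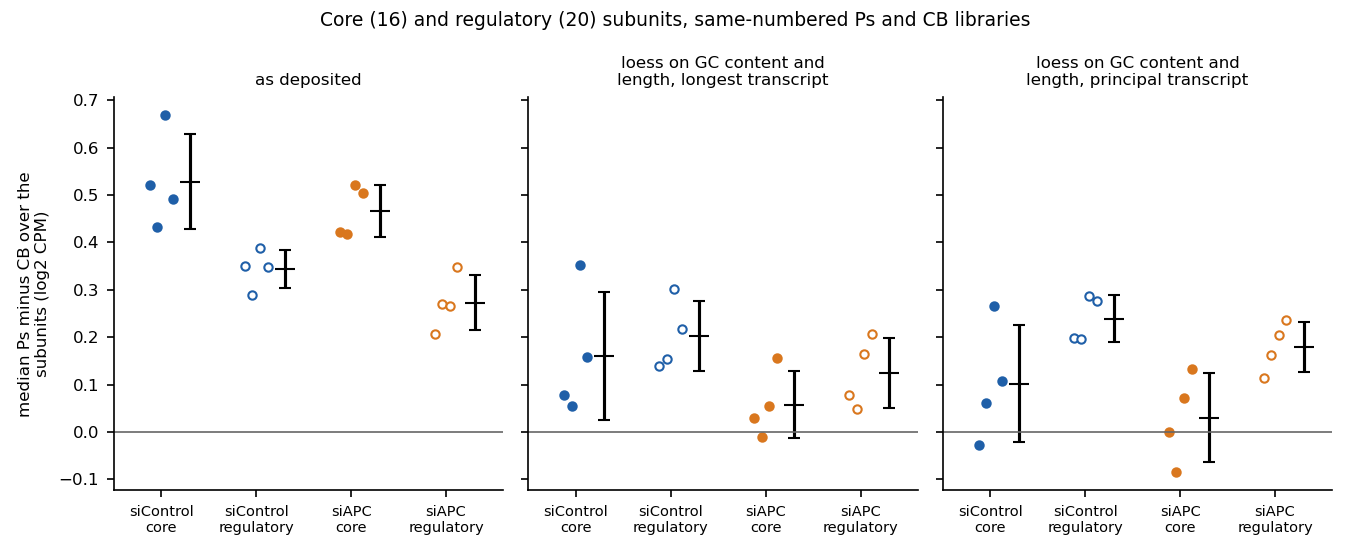
Median log2 Ps/CB ratio (y axis) of the 16 core and 20 regulatory members in each same-numbered pair of libraries, for siControl and siAPC; each point is 1 pair, and the black marks are the mean ± SD of 4. The core is above in 8 of 8 pairs as deposited (left), and the order turns or closes after a trend on GC content and length of the longest (middle) or principal transcript (right) is removed. In siControl the 2 libraries of a pair did not deviate together in replicates 2 and 3.

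With the longest-transcript trend removed, 23 members were higher and 3 lower in siControl Ps, against 29% of all genes higher and 25.7% lower. In siAPC Ps 17 were higher and 5 lower, against 25.5% and 24.9% of all genes. The core count fell from 15 to 8 of 16 in siControl and from 13 to 5 of 16 in siAPC, and the regulatory count went from 14 to 12 and from 13 to 8 of 20. The 3 lower members in siControl were the beta subunits Psmb2 (log2 -0.22, adjusted p = 0.011), Psmb5 (-0.20, 0.049) and Psmb6 (-0.21, 0.023), which is the reverse of their sign as deposited. Psmb1 had a ratio of 0.73 (adjusted p = 1.1e-10), and Psmc6 went from 1.34 to 0.61, under the fold cutoff, which 0 members passed. Psmd2 (0.15, adjusted p = 0.011), Psmd3 (0.23, 0.00029) and Psmb9 (0.61, 0.0027), which had not passed as deposited, were higher in siControl Ps after this correction. Besides these 3, the members that lost their siControl call under this correction were Psma1, Psma2, Psma4, Psma6, Psmb7, Psmc2, Psmd7, Psmd10, Psmd11, Psme2, Psme2b, Psmg1, Psmg2, Psmg4 and Psmc3ip. The correction on the principal transcript gave 24 higher and 5 lower members in siControl (28.8% and 25.8% of all genes) and 21 and 7 in siAPC (25.4% and 24.6%). In siControl Psma7 went from 0.40 (adjusted p = 7.7e-08) with the longest to -0.14 (0.024) with the principal transcript. Psmb3 went from 0.17 (0.018) to -0.18 (0.028). Psmb2 and Psmb6 stayed lower, whereas Psmb5 (-0.15, 0.12) and Psmb9 (0.24, 0.20) were not called. Psma1, Psmb7, Psmc2 and Psmd11 passed as higher with the principal transcript.

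Within each particle the Ps/CB ratio was higher where GC content was lower. Over the 16 core members Pearson's r between the siControl ratio and the GC content of the principal transcript was -0.83, over the 20 regulatory members -0.78, over all 47 members -0.63 and over 10235 genes -0.36. In siAPC the same values were -0.89, -0.82, -0.68 and -0.48. These are correlations across genes measured in the same libraries, and genes are not independent replicates. Psmc6, at the top of the range, has 37.0% GC in its principal transcript, and Psmd3, at the bottom, 58.3%. Psmg4, with 55.1% GC and a log2 ratio of 0.87, lay off this trend. Over the core members a longer principal transcript went with a higher ratio (r = 0.60), over the regulatory members with a lower one (r = -0.33), as over all genes (r = -0.38).

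**Figure D4:**
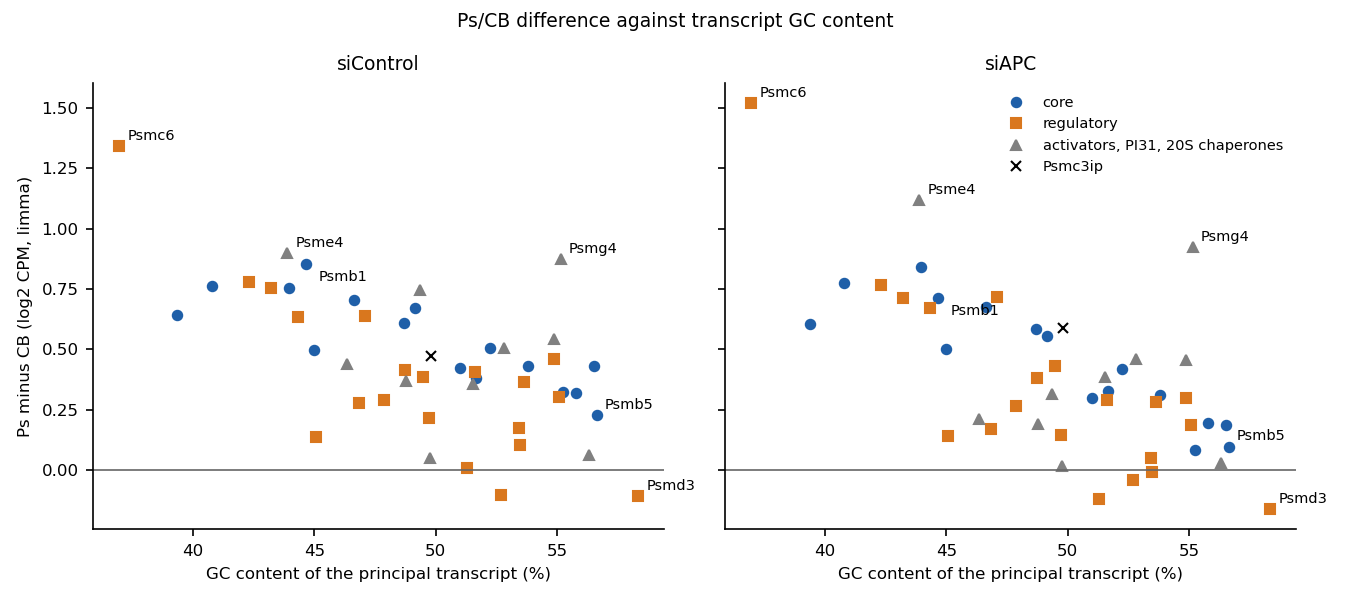
Log2 Ps/CB ratio (y axis) of each member against the GC content of its principal transcript in percent (x axis), in siControl and siAPC cells, with core, regulatory and other members marked apart. In both panels the points run from upper left to lower right, with Psmc6 at 37.0% GC and Psmd3 at 58.3%.

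Reads of some members may be shared with near copies or with genes on the other strand. For 6 members more than 5% of the 50-base stretches of their exons also occur in another listed gene, led by Psme2b, of which 68.7% occur in Psme2, and by Psme2, of which 28.3% occur in Psme2b. The others were Psmd2 with Gm5422 (17.3%), Psma3 with Gm13835 (15.4%), Psma4 with Gm6542 (11.6%) and Psmb3 with Gm4950 (7.52%). Counting all annotated genes, listed or not, 12 members pass 5%, with Psmb5 (54.1% in Gm3375), Psma5 (49.1% in Gm8394), Psmc1 (14.1% in Gm9575), Psmg3 (7.89%), Psmd11 (7.34%) and Psme1 (5.47%) in addition. The exons of 5 members (Psmb7, Psmb9, Psmc3, Psmd13 and Psmc3ip) overlap a listed gene on the opposite strand, and strand-aware counting is not stated in the sources used here. The values of these members are uncertain to that extent.

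In siAPC cells 34 members were higher in Ps (29.8% of all genes) and 0 were lower (30.9% of all genes), with 0 lower also at an unadjusted p below 0.05 and with voom precision weights. All 34 were among the 38 of siControl. The 4 that passed in siControl alone were Psmb5, Psmb10, Psmd13 and Psme2b, and 9 members passed in neither (Psmb9, Psmc4, Psmd1, Psmd2, Psmd3, Psmd5, Psmd9, Psme3 and Psmg3). Without the 4 GC-trend libraries Psmb5 (0.19, adjusted p = 0.0058) and Psmb10 (0.22, 0.015) passed in siAPC as well. In that fit Psmd5 passed in siAPC alone (0.16, 0.035), Psmd1 passed in siControl, and Psmd7 and Psmg2 lost their siAPC call. For 33 members every siAPC Ps library lay above every CB library, against 28.2% of all genes. The highest siAPC ratios after Psmc6 and Psme4 were those of Psmg4 (0.92), Psma1 (0.84) and Psma3 (0.78), and the 5 lowest were those of Psmd3 (-0.16), Psmd2 (-0.12), Psmd9 (-0.04), Psmc4 (-0.009) and Psme3 (0.02). By the study's fold cutoff, which 7.67% of all genes passed, Psmc6 and Psme4 were Ps-enriched. Psme4 was at 4.37, 4.77, 4.22 and 4.41 log2 CPM in siAPC CB and at 5.62, 5.83, 5.40 and 5.40 in siAPC Ps, without overlap, a ratio of 2.17-fold (log2 1.12, standard error 0.21, adjusted p = 0.00014).

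Whether the Ps/CB ratio depended on Apc was tested as the interaction of fraction and siRNA. No member passed (0.0231% of all genes did, which is 3 genes), with 0 at an unadjusted p below 0.05 (492 of the 13015 genes) and 0 with voom precision weights. The smallest adjusted p of a member was 0.98. The 3 largest values were those of Psme2b (log2 -0.43, standard error 0.21), Psmb10 (-0.24, 0.13) and Psmb9 (-0.24, 0.25), so that changes of this size in single members could not be told from the spread. Without the 4 GC-trend libraries these values were -0.39, -0.24 and -0.07, and that of Psmc3ip was 0.33 and that of Psmd1 -0.31. By the deposited scaling the value was under 0 for 34 of 47 members. Scaling to total listed reads moves all genes alike, with the median of all genes going from 0.005 to 0.15, so the sign of these values depends on the scaling. Relative to the median of all genes 11 of 47 members were above, and with quantile normalization 24 were. As deposited, the same test also missed RNAs that the paper names as dependent on Apc. These were Rab13 (-0.43, adjusted p = 0.98), Ddr2 (-0.40, 0.98), Pkp4 (-0.36, 0.95) and Kank2 (-0.63, 0.084), while Cyb5r3 passed (-0.78, 0.043). The lack of calls among members therefore does not show that their ratios are independent of Apc.

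Within a fraction, the count of proteasome mRNAs that differed between siAPC and siControl depended on the processing. In CB 4 members were lower than in siControl (Psma4, Psmg1, Psmg4 and Psmc3ip), where 5.87% of all genes were, and 0 were higher, where 7.52% were (1 at an unadjusted p below 0.05, 0 with voom precision weights). In Ps 3 members were lower (Psma4, Psmg1 and Psmf1), where 11.2% of all genes were, and 0 higher, where 10.7% were (again 1 and 0). After the longest-transcript correction 15 members were lower in siAPC Ps, against 21.8% of all genes. In Ps, where same-numbered siControl and siAPC libraries deviated together, the fit with the replicate number as a block called 6 lower (Psma4, Psmb1, Psmd4, Psmf1, Psmg1 and Psmg2), against 13.5% of all genes. In CB, Psmc4 passed as higher with that block, with arrayWeights, with quantile normalization and with total listed reads.

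Psmg1 (chr16:95979933-95990960, minus strand), the chaperone that pairs with Psmg2 in building the alpha ring, showed the clearest siAPC difference. It was at 5.30, 5.31, 5.05 and 5.36 log2 CPM in siControl CB and at 4.98, 4.89, 5.02 and 4.87 in siAPC CB. The groups did not overlap, though siControl CB 3 was barely above siAPC CB 3, and the difference was -0.31 (standard error 0.07, adjusted p = 0.0042). In Ps the levels were 5.63, 5.66, 5.52 and 5.63 in siControl and 5.33, 5.31, 5.36 and 5.30 in siAPC, a difference of -0.28 (adjusted p = 0.0058). When libraries were scaled to total listed reads the Ps difference was -0.12 (adjusted p = 0.18) and the CB call held, and both calls held under the other alternatives run. Its partner Psmg2 had values of -0.01 in CB and -0.24 in Ps (adjusted p = 0.063).

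Psmg4, of the second chaperone pair, was at 4.30, 4.11, 3.94 and 4.08 log2 CPM in siControl CB and at 3.77, 3.75, 3.96 and 3.81 in siAPC CB. The ranges overlapped at replicate 3 of both, and the difference of -0.29 (adjusted p = 0.039) was lost without any of siControl CB 1, 2 or 4 or siAPC CB 1, 2 or 4, with voom precision weights (0.053) and with quantile normalization. In Ps its value was -0.24 (adjusted p = 0.064). It passed as lower there without the 4 GC-trend libraries (-0.27, 0.047), and also without siControl CB 3 alone or siControl Ps 4 alone.

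Psma4, named here after its values were seen, was at 5.75, 5.65, 5.84 and 5.79 log2 CPM in siControl CB and at 5.63, 5.64, 5.44 and 5.54 in siAPC CB (difference -0.19, adjusted p = 0.038). In Ps it was at 6.30, 6.24, 6.29 and 6.21 in siControl and at 6.03, 6.07, 6.13 and 6.04 in siAPC (difference -0.19, adjusted p = 0.028). Neither pair of groups overlapped. The CB call was lost without any of siAPC CB 3 or 4 or siControl CB 1, 3 or 4 and the Ps call without any of siAPC Ps 1 or 4 or siControl Ps 1 or 3, and both were lost with total listed reads and with quantile normalization. The CB call was also lost with either correction for GC content and length, with the replicate block and without the 4 GC-trend libraries (adjusted p = 0.052).

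Psmf1 was lower in siAPC Ps by -0.21 (6.81, 6.58, 6.77 and 6.75 log2 CPM in siControl Ps, 6.47, 6.45, 6.52 and 6.61 in siAPC Ps, adjusted p = 0.027). Ps 4 of siAPC lay just above Ps 2 of siControl, and the call was lost without any of siAPC Ps 1, 2 or 3 or siControl Ps 1, 3 or 4 and with total listed reads (adjusted p = 0.53). In CB the value was -0.04. Psmc3ip was lower in siAPC CB by -0.38 (adjusted p = 0.021), a call lost without any of siAPC CB 1 or 4 or siControl CB 1 or 4 and with quantile normalization, and its value in Ps was -0.26 (adjusted p = 0.084), or -0.11 (0.42) without the 4 GC-trend libraries.

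The remaining members at the ends of the range did not pass as deposited. In CB the lowest of these were Psme4 (-0.27, and -0.08 without the 4 GC-trend libraries) and Psmc6 (-0.22, and -0.17). The highest in CB were Psme2b (0.23), Psmc4 (0.18), Psmd9 (0.15), Psmb6 (0.11) and Psmb10 (0.11), and Psmc4 passed there under the alternatives named above. In Ps the lowest was Psmb9 (-0.31, and -0.16 without those libraries) and the highest were Psmd9 (0.21), Psmc1 (0.08), Psmc4 (0.07), Psmb7 (0.02) and Psma1 (-0.004). By the deposited scaling 43 of 47 members were below 0 in Ps, and by total listed reads, which moved the median of all genes to 0.14, 37 were above 0 and 4 passed as higher (Psmb7, Psmc1, Psmc4 and Psmd9), against 22.6% of all genes. Relative to the median of all genes, which moves with the scaling, 7 of 47 members were above, and with quantile normalization 26 were.

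**Figure D5:**
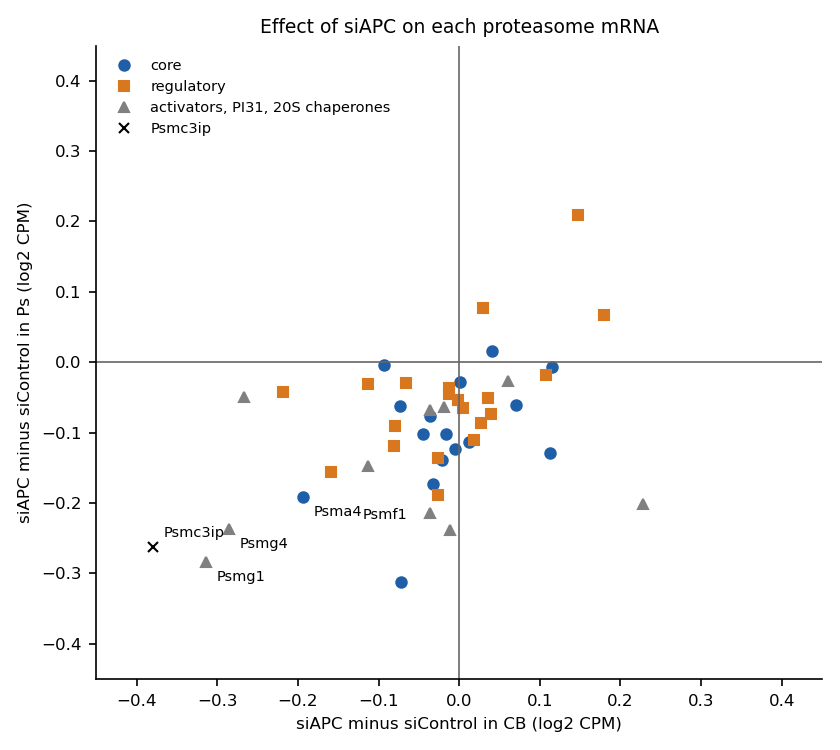
Log2 difference siAPC minus siControl in CB (x axis) and in Ps (y axis) for each member; named points passed an adjusted p of 0.05 in at least 1 fraction. Psmg1 lies at -0.31 and -0.28 and Psma4 at -0.19 and -0.19, while most members lie close to 0 in CB and slightly under 0 in Ps.

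Inducible catalytic subunits replace the constitutive ones in the immunoproteasome of interferon-treated and immune cells, and of the 2 listed here Psmb9 was low. Psmb9 (chr17:34181987-34187764, minus strand) was at 1.8, 1.78, 1.47 and 1.99 log2 CPM in siControl CB and at 2.18, 2.10, 2.17 and 1.89 in siControl Ps. Ps 4 lay inside the CB range, and neither the siControl (log2 0.33, adjusted p = 0.11) nor the siAPC ratio (0.09, 0.69) passed as deposited. The siControl ratio passed at 0.61 after the longest-transcript correction, but not after that on the principal transcript (0.24, adjusted p = 0.20). Per kilobase of principal transcript, the mean level of Psmb9 was 116, 116, 132 and 140-fold below that of Psmb6, which it replaces, in the CB and Ps of siControl and then those of siAPC. Psmb10 was nearer to Psmb7, which it replaces, at 3.64, 4.11, 3.46 and 4.55-fold below it in the same order of groups. Psmb10 was higher in siControl Ps (5.12, 5.25, 5.00 and 5.17 in CB, 5.62, 5.34, 5.66 and 5.65 in Ps, log2 0.43, adjusted p = 0.00041), and its siAPC value was 0.19 (adjusted p = 0.078).

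Genes of the same antigen presentation pathway did not follow the proteasome mRNAs. Of 10 listed genes, B2m alone was higher in siControl Ps (log2 0.36), where 29.1% of all genes were, and 6 were lower, where 31.2% were. The lower ones were the peptide transporters Tap1 (-1.30) and Tap2 (-1.21) and the class I heavy chains H2-K1 (-0.91) and H2-D1 (-0.39). The loading factor Tapbp (-0.84) and Irf1 (-0.94), an interferon-response factor, were also among them. The counts in siAPC were the same, against 29.8% of all genes higher and 30.9% lower. None of the 10 differed between siAPC and siControl in either fraction (limma, adjusted p below 0.05). Of all genes 7.52% were higher and 5.87% lower in siAPC CB, and 10.7% and 11.2% in siAPC Ps.

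Levels between members were compared per kilobase of principal transcript. In siControl CB the 14 constitutive core subunits had a median of 6.67 log2 CPM per kilobase, from 4.91 for Psma3 to 8.19 for Psmb6, a 9.70-fold span. The 17 regulatory subunits, without the 3 chaperones, had a median of 6.01, from 2.80 for Psmc6 to 7.20 for Psmd2, a 21.1-fold span. Although their products are used in equal numbers within a particle, the mRNAs thus differed by an order of magnitude. The medians were 7.33 and 6.40 in siControl Ps, 6.69 and 6.04 in siAPC CB and 7.33 and 6.37 in siAPC Ps. The lowest levels depend on the transcript chosen, since the principal transcripts of Psma2 and Psma3 hold 2911 and 2846 bases with their long ends.

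Other genes of the pathway, 29 of them listed, showed no common direction. In siControl Ps 9 were higher and 7 lower, with a median log2 ratio of 0.04, shares near the 29.1% and 31.2% of all genes. The 3 highest were Rps27a (1.32), a fusion of ubiquitin with a ribosomal protein, the proteasome-bound deubiquitinase Uchl5 (1.08) and the small lid subunit Shfm1 (1.01). Among the lowest were Nfe2l1 (-0.45) and Ddi2 (-0.34), the transcription factor of proteasome genes and the protease that activates it. In siAPC Ps 10 were higher and 6 lower, against 29.8% and 30.9% of all genes. Against siControl, siAPC cells had a higher level of Zfand2a, a stress-induced proteasome-binding protein, in CB (0.48) and Ps (0.46) and of Nfe2l2, the factor of the antioxidant response, in Ps (0.39). Lower were Ngly1 in CB (-0.52), which processes Nfe2l1, and in Ps Ubqln2 (-0.21), Ubqln4 (-0.26) and Rps27a (-0.34), of which the first pair are shuttle proteins. Of the 29 genes 1 was thus higher and 1 lower in siAPC CB, against 7.52% and 5.87% of all genes. In siAPC Ps 2 were higher and 3 lower, against 10.7% and 11.2% of all genes.

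Other multi-subunit complexes were measured in the same way. The mRNAs of 78 cytoplasmic ribosomal proteins had a median log2 Ps/CB ratio of 1.26 in siControl and 1.18 in siAPC, against the members' 0.43 and 0.32. With quantile normalization these medians were 0.51 and 0.59, against 0.45 and 0.39 for the members. Scaled to total listed reads they were 0.96 and 1.03, against 0.13 and 0.16. After the longest-transcript correction they were 0.80 and 0.71, against 0.15 and 0.08. Those of 76 mitochondrial ribosomal proteins had medians of 0.52 and 0.43, and 7 of the 8 subunits of the CCT chaperonin, which folds actin and tubulin, were higher in siControl Ps with a median of 0.63. By the deposited scaling all of these complexes had medians above 0 in both siRNA groups, and that of all proteasome members together was the lowest. The members include chaperones, activators, an inhibitor and Psmc3ip, and the ranking did not hold for the core particle alone. Core medians were 0.50 in siControl and 0.46 in siAPC, the latter above the mitochondrial ribosomal proteins. Without Psmb9 and Psmb10 they were 0.56 and 0.53, above those proteins in both groups and above CCT (0.51) in siAPC. Regulatory medians were 0.33 and 0.27, below the other complexes.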

How the data were processed

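RNA-seq of 16 libraries was analysed from a single table of 13015 genes. The authors demultiplexed paired reads with bcl2fastq 1.8.4, aligned them to mm10 with STAR 2.4.2a and a GENCODE gene set, counted them per gene with Rsubread and deposited log2 CPM from limma-voom 3.26.1. Library size factors of that step can shift all ratios between libraries. The stated filter on low values was not met by 1298 genes, whose highest value is at or below 0.5. Of the 208240 values, 100% gave whole reads within 0.05 when the offset of 0.5 and the scaling were undone.

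The deposited values were fitted with limma 3.58.1 (lmFit and eBayes with an intensity trend, R 4.3.3, 1 mean for each of the 4 groups) and p-values adjusted by Benjamini-Hochberg over all genes, with a threshold of 0.05. In simulated data of this size 76% of genes changed by 0.5 on the log2 scale and 100% of those changed by 1 were recovered. GC content and transcript lengths came from GENCODE M21, matched for 12873 genes (98.9%), and the loess span was 0.3. Summaries used Python 3.11.15, numpy 2.4.6, pandas 2.3.3, scipy 1.17.1 and matplotlib 3.10.9.

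Members and lists were chosen with earlier results of these data known. Values are given for the catalytic, inducible, deubiquitinating and ubiquitin-binding subunits, all Psme, Psmf and Psmg names, the 5 highest and 5 lowest members of each comparison and the 3 largest interaction values. Alternatives were voom weights, arrayWeights, quantile and total-read scaling, loess on GC content and length, a filter at a mean of 1, a replicate block, other memberships and leaving out libraries. The principal-transcript loess was added after seeing the data. Same-numbered libraries deviated together between siAPC CB and Ps (r from 0.42 to 0.62 over 10292 genes) and between siControl and siAPC Ps (0.16 to 0.55). These numbers were read as pairs, which the labels do not state.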

Additional observations from a re-analysis of the deposited data

Results flagged for a closer look

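Dixon's criterion was applied to 118 sets of 4 values, those of the 28 named members in the 4 groups and the core, regulatory and difference medians of each siRNA. In 7 sets, all of single members, 1 library lay far from the other 3, which chance gives in about 1 of 20 sets. All 7 lie in the 4 libraries in which genes of high GC content were low relative to their group, and the part of that trend in these values was not tested. Psmb10 was at 5.34 log2 CPM in siControl Ps 2, against 5.62 to 5.66 in the others of the group. Psmc6 was at 4.19 in siAPC CB 2, against 3.45 to 3.57. In siControl CB 3 the chaperone Psmd9 was at 4.68 (others 4.99 to 5.04), Psme1 at 6.57 (others 6.86 to 6.92), Psme2b at 2.04 (others 2.43 to 2.50) and Psme3 at 6.98 (others 7.24 to 7.27). Psmc3ip was at 3.39 in siAPC Ps 2, against 3.59 to 3.61. Without the 4 libraries the siControl log2 Ps/CB ratio was 0.46 for Psmb10, -0.12 for Psmd9, 0.46 for Psme1, 0.70 for Psme2b and 0.02 for Psme3, and the siAPC ratio was 1.60 for Psmc6 and 0.67 for Psmc3ip, with the same side of the threshold as with them.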

How the results depend on the processing

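Under alternatives other than leaving out 1 library, 352 values of named members kept their direction and their side of the threshold, 47 kept only the direction and 15 reversed. With the loess on the longest transcript 23 members were higher and 3 lower in siControl Ps and 17 and 5 in siAPC Ps, 15 were lower in siAPC than siControl Ps, 0 passed the fold cutoff, and 8 core members were higher in siControl and 5 core and 8 regulatory members in siAPC. The medians were 0.16 (core) and 0.20 (regulatory) in siControl, differing by -0.042, and 0.057 and 0.12 in siAPC, differing by -0.066. With the principal transcript, chosen after seeing the data, the counts were 24 and 5, 21 and 7, 11, 0, 7 core members in siControl and 5 in siAPC, and the medians 0.10 and 0.24 (difference -0.14) and 0.030 and 0.18 (difference -0.15). The siControl Ps/CB ratios of Psmb5, Psmb6, Psmg1 and Psmg2 turned to -0.20, -0.21, -0.11 and -0.024 with the longest and -0.15, -0.19, -0.064 and -0.16 with the principal transcript, and the siAPC ratios of Psmb6, Psmg1 and Psmg2 to -0.29, -0.040 and -0.27 and to -0.24, -0.0056 and -0.41. Scaling to total listed reads gave 22 higher and 7 lower in siControl Ps, 4 lower in siAPC Ps, 7 regulatory members higher in siControl, 1 higher in siAPC CB and 4 higher and 0 lower in siAPC Ps against siControl, medians of 0.23 and 0.046 in siControl and 0.31 and 0.12 in siAPC, and -0.068 for Psmb5. Quantile normalization gave 1 member lower in each Ps, 1 higher and 1 lower in siAPC CB, and siAPC medians of 0.53 and 0.35. With arrayWeights 1 member was lower in siAPC Ps than CB, 1 higher in siAPC CB, 6 lower in siAPC Ps against siControl and 2 passed the fold cutoff. Only genes with a mean of at least 1 gave 5 lower in siAPC Ps, as did leaving out the 4 libraries with a GC trend, with 2 past the fold cutoff. Without the inducible subunits the siAPC core median was 0.53 and its difference 0.25. Except where the loess changes ratios by its construction, the cause was not tested.

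With a replicate block 1 member was higher in siAPC CB and 6 were lower in siAPC Ps, and 45 of 46 calls of named members held (Psma4 in CB had an adjusted p of 0.057). In siControl, same-numbered CB and Ps libraries did not deviate together in every replicate (r of 0.34, -0.12, -0.12 and 0.43 for replicates 1 to 4). Nor did siControl and siAPC CB (0.27, -0.34, -0.32 and 0.26). Whether these numbers pair the samples is not in the labels.

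Leaving out 1 library at a time gave 1 to 4 members lower in siAPC CB (1, Psmg1, without siAPC CB 4, siControl CB 1 or siControl CB 4), 1 to 9 lower in siAPC Ps (1 without siControl Ps 1, 9 without siControl CB 3) and 1 to 2 past the fold cutoff (2 without siControl CB 3). The medians compare libraries directly, so no values exist for them under voom weights, arrayWeights and the block. Depth limits Psmb9, with as few as 37 reads, more than any other member.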
